A study of Mus musculus with 2 samples.

Results

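The genes described here are 10 transcription regulators of energy metabolism in muscle, namely the coactivators Ppargc1a (PGC-1alpha) and Ppargc1b (PGC-1beta), the muscle regulator Perm1, the estrogen-related receptors Esrra, Esrrb and Esrrg, the peroxisome proliferator-activated receptors Ppara and Ppard, the nuclear respiratory factor Nrf1 and the mitochondrial transcription factor Tfam. A probe was taken when its printed gene name, or the current symbol of its transcript, was one of these names. All 10 genes were found among the 21006 gene symbols on the arrays, with 21 probes, and every gene had at least 1 probe above background in both samples.

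The PGC-1 coactivators bind no DNA of their own and raise transcription by docking on nuclear receptors and other factors, among them the estrogen-related receptors (ERRs), the peroxisome proliferator-activated receptors (PPARs) and Nrf1. The receptors bind near genes of fatty acid oxidation and respiration, Nrf1 acts on nuclear genes of the respiratory chain, and Tfam carries the programme into the organelle by binding mitochondrial DNA. In muscle this circuit is known for its response to contraction and endurance exercise, and Perm1 is a striated-muscle protein that PGC-1 and ERRs induce.

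The samples were gastrocnemius muscle, a calf muscle, of male C57BL/6 mice, whose transcripts were hybridised to 1-colour Agilent arrays. One group had been denervated for 14 days from 7 weeks of age and the other was a control, both 9 weeks old at sampling, and neither carried a transgene or received a drug according to the labels. The control is called sham in its title and only control elsewhere, so an operation on it is not settled. RNA of 6 mice was pooled per group and each pool was hybridised to 1 array.

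Every value below therefore compares 2 pools with no replicate check and no test. A signal is given in multiples of the 75th percentile of its array, and a difference is log2 of the denervated signal minus log2 of the control signal, for the brightest measured probe of a gene. The number after ± is a technical error, from the errors that the scanning software gives each spot, and leaves out the spread between mice. It is close to 0.20 except at dim probes because the software presets a multiplicative error of 10%. It is thus no observed spread. In whole muscle, fewer cells of a type and less RNA per cell cannot be told apart. Probes well above background made up 70.9% and 68.4% of the control and denervated arrays, and muscle genes were bright on both (Acta1, the skeletal actin, at 605 and 418, and Tnnt3, a fast troponin, at 739 and 640).

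Of the 10 regulators, 5 were at least 2-fold lower in the denervated pool and none was at least 2-fold higher. Among all 15068 measured genes, 8.57% were that much lower and 6.97% that much higher. With spike-in scaling that split turned, since 624 genes were then lower and 2204 higher, against 1291 and 1050 as reported. The 5 lower genes were Perm1, Ppargc1a, Ppara, Ppargc1b and Esrra. Esrrg, Ppard, Tfam and Esrrb lay below 0 by less than 2-fold, and Nrf1 lay above 0. In all, 9 of the 10 were below 0, against 57.2% of all measured genes. Their median difference was -1.12, against -0.11 over all genes. The regulators were chosen with earlier results of these data known, so these contrasts are not independent of the values. Scaling to the spike-in controls raises every gene by 0.40, and the same 5 genes were at least 2-fold lower on that scale too. Esrrb then lay above 0 (0.06).

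**Figure D1:**
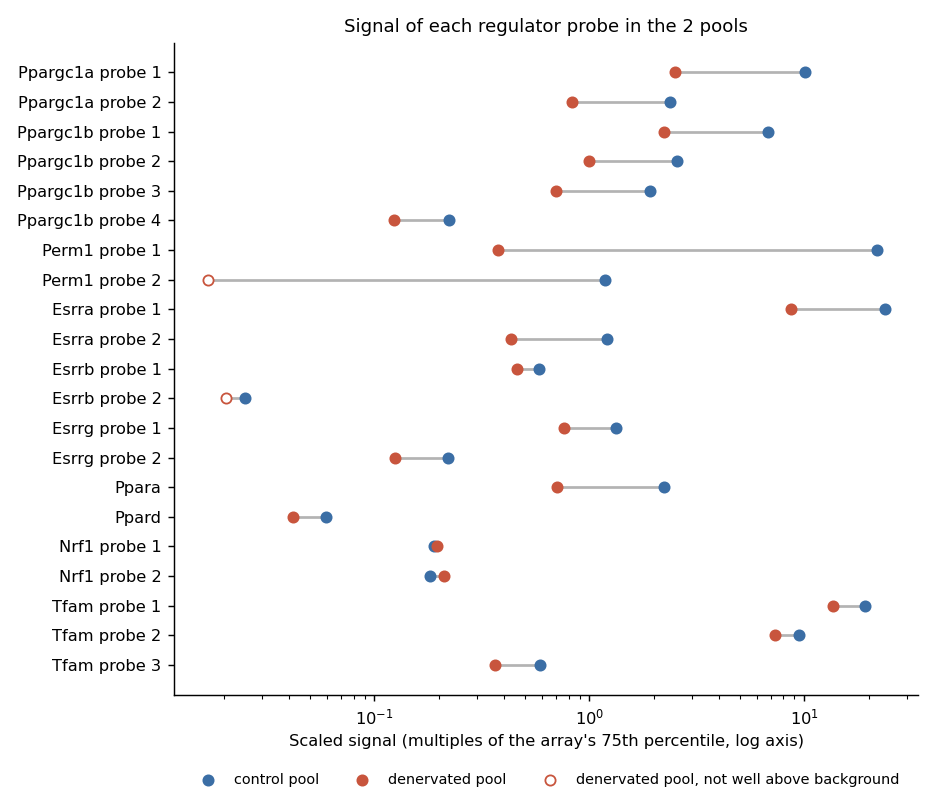
Signal of each regulator probe in multiples of the array's 75th percentile (log axis), in the control pool and the denervated pool, 1 row per probe. The widest gaps are those of both Perm1 probes, from 21.8 to 0.377 at the first and from 1.18 to below detection at the second, while the points of each Nrf1 probe nearly coincide.

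The sequences just upstream of the 5' ends of the regulators are shown because 5 of these genes were lower together. Each window holds the 250 bases before a RefSeq start on GRCm38.p6, written 5' to 3' on the gene's strand, and capitals mark a motif match other than an E-box. No window of Ppargc1b was analysed here.
Perm1 (chr4:156215677-156215926, + strand): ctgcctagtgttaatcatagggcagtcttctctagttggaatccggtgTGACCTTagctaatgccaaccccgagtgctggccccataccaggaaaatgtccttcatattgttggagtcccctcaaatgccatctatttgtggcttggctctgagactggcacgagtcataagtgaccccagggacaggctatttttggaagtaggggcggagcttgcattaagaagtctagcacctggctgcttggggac
Ppargc1a (chr5:51567726-51567975, - strand): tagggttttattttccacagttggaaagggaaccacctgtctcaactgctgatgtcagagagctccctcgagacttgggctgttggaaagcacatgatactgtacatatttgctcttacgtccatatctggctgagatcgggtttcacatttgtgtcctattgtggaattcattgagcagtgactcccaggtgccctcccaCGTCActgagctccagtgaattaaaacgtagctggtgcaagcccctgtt
Ppara (chr15:85735526-85735775, + strand): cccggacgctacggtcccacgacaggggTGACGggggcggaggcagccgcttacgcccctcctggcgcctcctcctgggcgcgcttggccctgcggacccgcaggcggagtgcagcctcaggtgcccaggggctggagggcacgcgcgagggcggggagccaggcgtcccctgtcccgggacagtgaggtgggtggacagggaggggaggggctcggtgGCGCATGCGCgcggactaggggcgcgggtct
Esrra (chr19:6921809-6922058, - strand): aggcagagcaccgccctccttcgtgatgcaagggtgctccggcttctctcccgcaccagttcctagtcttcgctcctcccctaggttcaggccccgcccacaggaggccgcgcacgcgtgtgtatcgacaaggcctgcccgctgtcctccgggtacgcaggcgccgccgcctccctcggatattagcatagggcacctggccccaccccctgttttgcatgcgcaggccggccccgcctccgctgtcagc
Tfam (chr10:71238045-71238294, - strand): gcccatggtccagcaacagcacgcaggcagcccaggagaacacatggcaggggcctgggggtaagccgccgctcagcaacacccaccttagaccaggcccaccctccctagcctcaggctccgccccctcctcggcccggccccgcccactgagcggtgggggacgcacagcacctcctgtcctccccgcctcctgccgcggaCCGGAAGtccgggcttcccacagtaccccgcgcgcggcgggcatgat

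Tfam is printed for contrast, as a regulator within 2-fold. The letters searched, on both strands, were TCAAGGTCA (the ERR response element, in 0.387% of the same windows of all 32851 starts), its shorter core AAGGTCA (4.08%, overlapping the first), the PPAR direct repeat (AGGTCA 2 times in the same direction, 1 base apart, 0.0335%), the Nrf1 palindrome (capitals near the end of the Ppara window, 0.782%), CCGGAAG (the ETS core that GABP binds, 6.91%), TGACGTCA (the cAMP response element, 1.55%), its shorter core TGACG (17.8%, overlapping the full element) and the E-box CANNTG (66.2%). The Perm1 window holds AAGGTCA on the opposite strand, printed there as its reverse complement, from 202 to 196 bases before the start. The Ppara window holds the Nrf1 motif from 31 to 22 bases before the start and a cAMP core. The Ppargc1a window holds a cAMP core on the opposite strand from 49 to 45 bases before the start. The Tfam window holds the ETS core from 47 to 41 bases before the start. The windows of Esrrb, Esrrg, Ppard and Nrf1, also within 2-fold, were searched but are not printed. Of these only 1 Esrrb window holds a match other than an E-box, namely 2 cAMP cores. None of the letters searched other than the E-box occurs in the Esrra window. A match here describes letters only.

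Perm1 had the lowest difference of the regulators and of nearly all measured genes. Genes not well above background in both pools were not ranked. Its brighter probe read 21.8 in the control and 0.377 after denervation. This is a 57.9-fold lower signal (-5.86 ± 0.20), and 3 of the 15068 measured genes lay lower still. A second probe for the same transcript (NM_172417) read 1.18 in the control pool and was not well above background in the denervated pool. Set against the lowest signal called above background on the denervated array, 0.0168, it was 69.9-fold lower. This is no firm minimum, since an Esrrb probe at 0.0204 on that array was not well above background either. Both probes are listed under the older name 2310042D19Rik, and the files give them no genome position. The genes that flank Perm1 in the RefSeq gene order stayed much closer to 0: Isg15, an interferon-induced ubiquitin-like protein, was at -0.53 ± 0.21 and Plekhn1 at -0.53 ± 0.20. One gene farther out on each side, Agrn, which encodes the synapse organiser agrin, was at -0.14 ± 0.20 and Klhl17 at -0.56 ± 0.20. These neighbours were chosen after the Perm1 value was seen.

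Ppargc1a, the exercise-induced coactivator, was 4.06-fold lower. Its probe for transcript NM_008904 (chromosome 5, 51745937 to 51745996, mm8, minus strand) read 10.1 in the control and 2.49 after denervation, a difference of -2.02 ± 0.20. A second probe, made from a cDNA clone and lying nearby (51743906 to 51743965), read 2.37 and 0.828, a difference of -1.52 ± 0.20. Both probes put the denervated pool more than 2-fold below the control. Only 1.61% of measured genes lay below the first value. Both probes sit at close positions in the locus, so transcripts from different starts were not separated.

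Ppargc1b, the constitutive relative of Ppargc1a, was 3.04-fold lower. Its brightest probe (chromosome 18, 61423967 to 61424026, mm8, minus strand) read 6.75 in the control and 2.22 after denervation (-1.60 ± 0.20). A second probe for the same transcript gave -1.47 ± 0.20, and a cDNA clone probe (61421904 to 61421963) gave -1.36 ± 0.20. The fourth probe, of another clone, lies far from these (61521953 to 61522012) and read 0.222 and 0.123, a difference of -0.85 ± 0.21. All 4 probes were lower in the denervated pool, 3 of them by more than 2-fold.

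Among the ERRs, the orphan receptors through which PGC-1 reaches mitochondrial genes, Esrra had the lowest value. Its probe for NM_007953 (chromosome 19, 6978153 to 6978212, mm8, minus strand) read 23.6 in the control and 8.69 after denervation, which is 2.72-fold lower (-1.44 ± 0.20). A clone probe (6983724 to 6983783) read 1.21 and 0.432 (-1.49 ± 0.20), so both probes agree within their error. The probe of Trmt112, a methyltransferase partner, starts at 6977950 on the opposite strand and went the other way, from 9.57 to 16.1 (0.75 ± 0.20).

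Esrrg, the ERR best known from oxidative fibres, was 1.74-fold lower and did not reach 2-fold. Its 2 probes (chromosome 1, 189915027 to 189915086 and 189911946 to 189912005, mm8) gave nearly the same difference. The brighter read 1.33 in the control and 0.763 after denervation (-0.80 ± 0.20), and the other read 0.219 and 0.125 (-0.82 ± 0.21).

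Esrrb, the ERR known mainly from stem cells and placenta, read 0.584 in the control and 0.460 after denervation (-0.35 ± 0.20). With spike-in scaling the difference was 0.06 and without scaling 0.09, so it has no settled direction. Its second probe was well above background in the control alone, at 0.0250, and read 0.0204 after denervation. The lowest signals called above background were 0.0184 and 0.0168. Before scaling its intensity was 19.7 in the control and 21.7 after denervation, so this probe has no settled direction either. The ERR values thus ran from Esrra through Esrrg to Esrrb. The step of 0.65 from Esrra to Esrrg was 2.23 times the combined technical error of both.

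**Figure D2:**
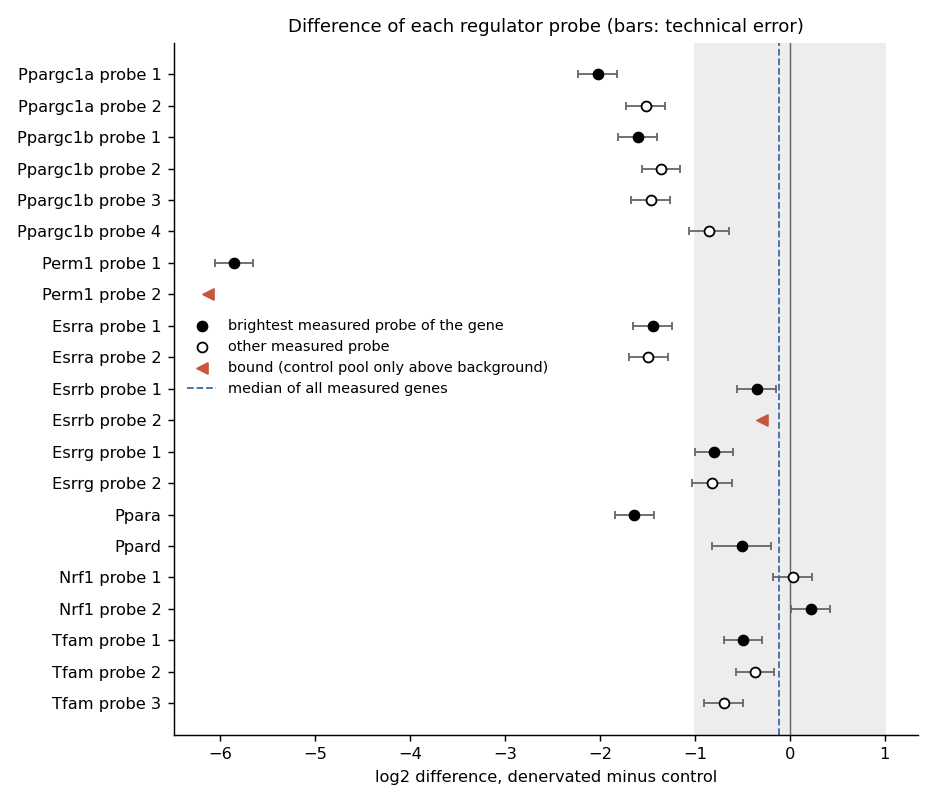
Difference of each regulator probe, denervated minus control (log2), with the technical error as a bar, the range within 2-fold shaded and the median of all genes dashed. Filled points are the brightest measured probe of a gene, open points other measured probes, and triangles are bounds. Neither triangle is a firm minimum, and that of Esrrb compares readings near the detection limit. All measured probes of Ppargc1a, Ppargc1b, Perm1, Esrra, Esrrg, Ppara, Ppard, Esrrb and Tfam lie below 0.

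Ppara, the fatty acid receptor that switches on oxidation of lipids, was 3.11-fold lower. Its single probe (NM_011144, chromosome 15, 85629291 to 85629350, mm8, plus strand) was printed 10 times on each array, which shows the spread between spots of an array. The control spots ranged from 2.13 through a median of 2.21 to 2.31, and the denervated spots from 0.670 through 0.706 to 0.781. The ranges of the spots did not overlap. Paired by position, the spots gave a mean difference of -1.64 with an SD of 0.08 over 10 spots, less than the 0.20 that the software assigns. The spots share 1 RNA pool and 1 array per group and are not biological replicates. Their SD therefore leaves out differences in labelling and between arrays.

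Ppard, the PPAR usually described as prevalent in skeletal muscle, was dim. Its single probe (chromosome 17, 28027240 to 28027299, mm8, plus strand) read 0.0593 in the control and 0.0417 after denervation, where the lowest signals called above background were 0.0184 and 0.0168. The difference was -0.51 ± 0.31, and it shrank to -0.11 with spike-in scaling. A filter at 4 times the lowest detected signal removed this gene.

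**Figure D3:**
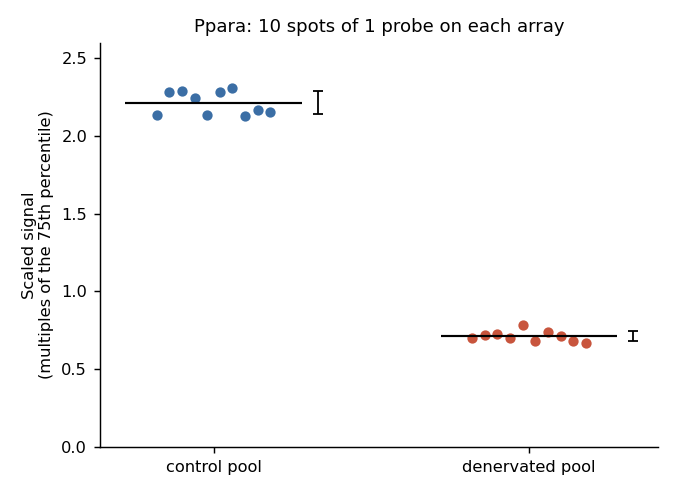
Scaled signal of the 10 spots of the Ppara probe on each array, with the mean as a line and the SD over spots as a bar. The control spots sit between 2.13 and 2.31 and the denervated spots between 0.670 and 0.781.

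Nrf1, a DNA-binding activator of nuclear respiratory genes, was the only regulator above 0. One probe (chromosome 6, 30066151 to 30066210, mm8) read 0.180 in the control and 0.210 after denervation (0.22 ± 0.21). The other (30102531 to 30102590) read 0.190 and 0.194 (0.03 ± 0.21). An unnamed cDNA probe that lies between them was at 0.17 ± 0.21. With normexp background correction the Nrf1 difference was -0.12, so its direction was not settled.

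Tfam, which packages and transcribes mitochondrial DNA, had 3 probes, all below 0 and none 2-fold lower. The brightest (chromosome 10, 70633430 to 70633490, mm8, minus strand), made from a GenBank entry, read 19.1 in the control and 13.6 after denervation (-0.49 ± 0.20). The probes of RefSeq transcript NM_009360 read 9.42 and 7.31 (-0.37 ± 0.20), and 0.587 and 0.363 (-0.69 ± 0.21). With spike-in scaling the brightest probe was at -0.09, within its technical error of 0.

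In order of their differences the regulators ran Perm1, Ppargc1a, Ppara, Ppargc1b, Esrra, Esrrg, Ppard, Tfam, Esrrb and Nrf1. Perm1 stood 3.83 below Ppargc1a, 13.3 times their combined technical error. Ppargc1a and Ppara were 0.38 apart, or 1.33 times that error, while Ppara, Ppargc1b and Esrra followed within less than it. The next step, 0.65 from Esrra to Esrrg, was the one across the 2-fold line. Esrrg, Ppard, Tfam and Esrrb were again less than 1 combined error apart from neighbour to neighbour. The last step, 0.57 from Esrrb to Nrf1, was 1.93 times the combined error. Since this error is largely preset, such ratios mostly restate the sizes of the steps.

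Other probes within 100 kb of a regulator probe were examined on the mm8 positions of the files. Around Esrra, 21 such probes were measured, 2 of them lower by 2-fold or more and 3 higher by as much, from -1.23 to 1.54. The lower ones were the brighter probe of Vegfb, an endothelial growth factor (-1.10 ± 0.20, with its other probe at -0.88), and Trpt1, a tRNA phosphotransferase (-1.23 ± 0.20). The higher ones were Fermt3, the kindlin of blood cells (1.54 ± 0.30), Ccdc88b (1.18 ± 0.20) and the dimmer probe of Ppp1r14b, a phosphatase inhibitor (1.07 ± 0.20, with its other probe at 0.85). Near Tfam, 3 of 4 measured probes were at least 2-fold lower, from -1.53 to -1.05. The lowest 2 were dim and had no gene name or a clone name only. One read 0.0568 in the control and 0.0197 after denervation (-1.53 ± 0.36), the other 0.148 and 0.0606 (-1.29 ± 0.23). The ubiquitin-conjugating enzyme gene Ube2d1 was at -1.05 ± 0.20 and Cisd1, a mitochondrial iron-sulphur protein, at -0.81 ± 0.20. Around Nrf1, 1 of 5 measured probes was at least 2-fold lower (-1.05). None of the 5 measured probes around Ppara and none of the 6 around Ppard passed 2-fold. No probe other than its own lay within 100 kb of those of Ppargc1a, Esrrb or Esrrg.

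The genes that work with these regulators were described as 7 lists. In all, 27 of 122 measured list genes were lower by 2-fold or more and 2 higher by as much, with a median of -0.45. These counts are set beside the backgrounds of 8.57% and 6.97% given above, and no list was tested. The lists, too, were chosen with earlier results of these data known.

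Coregulators, the proteins that assist or oppose PGC-1 and its receptors, stayed near the median of all genes. Of 15, none was at least 2-fold lower and 1 was at least 2-fold higher, with a median of -0.13. Mybbp1a, a repressor that binds PGC-1alpha, read 3.85 in the control and 8.78 after denervation (1.19 ± 0.20). Nrip1, the corepressor RIP140, was at 0.83 ± 0.20 by its brightest probe, but its 3 probes ran from -1.24 to 1.11. Ncoa1, a steroid receptor coactivator, was at -0.63 ± 0.20. The median of the list turned positive with spike-in scaling (0.28).

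Among partner and related nuclear receptors, 1 of 5 measured was at least 2-fold lower. It was Rxrg, a retinoid X receptor that pairs with PPARs, which read 44.7 in the control and 7.33 after denervation (-2.61 ± 0.20). Rxra, its relative, read 42.7 and 27.6 (-0.63 ± 0.20), and the orphan receptor Nr2f2 was at -0.90 ± 0.20. Nr0b2 was well above background in the control pool alone, and Nr2f1 in neither pool.

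Signalling genes upstream of PGC-1 held the 2 largest differences among the listed genes. Of 25 measured, 5 were at least 2-fold lower and none higher, with a median of -0.35 (0.05 with spike-in scaling, where 2 were 2-fold lower). Map2k6, a kinase that activates p38 and so PGC-1alpha, read 8.35 in the control and 0.772 after denervation (-3.44 ± 0.20). Camk2a, a calcium-calmodulin kinase, read 35.0 and 5.04 (-2.79 ± 0.20), with its second probe at -2.70. Prkag1, a gamma subunit of the energy sensor AMPK, was at -1.06 ± 0.20. The other two lower genes, named after their values were seen, were the AMPK catalytic subunit Prkaa2 (-1.05 ± 0.20) and the calcineurin subunit Ppp3cb (-1.02 ± 0.20, with probes from -1.06 to -0.61). The brightest gene of the list, the calcineurin subunit Ppp3ca, was at 0.31 ± 0.20 with its other probe at -0.08.

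Factors that share nuclear respiratory control with Nrf1, such as GABP, showed no member past 2-fold among 6 (median -0.22, or 0.18 with spike-in scaling). Gabpb2 was at -0.75 ± 0.33, Yy1 at -0.47 ± 0.20 and Hcfc1 at -0.23 ± 0.20. The probes of Yy1 ran from -0.74 to 0.02.

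The machinery that copies and transcribes mitochondrial DNA alongside Tfam likewise stayed near the median of all genes. Of 18 measured genes, 1 was at least 2-fold lower and none higher, with a median of -0.14 (0.27 with spike-in scaling). That gene was Mterf2, a mitochondrial transcription termination family member (-1.10 ± 0.20). Mgme1, a mitochondrial exonuclease, was at -0.89 ± 0.20. Tfb1m, an rRNA methyltransferase of the organelle, was at 0.70 ± 0.20, and the bright RNA-binding gene Slirp at -0.03 ± 0.20.

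Known targets of ERRs and PGC-1 had the lowest median of the 7 lists. Of 29, 14 were at least 2-fold lower, none was at least 2-fold higher and 28 were below 0, with a median of -0.98. With spike-in scaling 27 genes lay below 0 and 8 passed 2-fold (median -0.57). Ckmt2, the mitochondrial creatine kinase of striated muscle, read 268 in the control and 62.3 after denervation (-2.11 ± 0.20). Cpt1b, the gatekeeper of mitochondrial fatty acid entry, read 30.7 and 7.43 (-2.05 ± 0.20). Kyat1, a kynurenine aminotransferase, read 3.95 and 1.01 (-1.97 ± 0.20). The brightest member, the adenine nucleotide carrier Slc25a4, was at -0.61 ± 0.20, with its other probe at -1.13. The 1 gene above 0, named after its value was seen, was the carnitine carrier Slc25a20 (0.28 ± 0.20).

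Known PPAR targets were more spread. Of 24 measured, 6 were lower by 2-fold or more and 1 higher by as much, with a median of -0.44 (-0.04 with spike-in scaling, where 5 were lower and 3 higher). Acaa2, a thiolase of beta-oxidation, was at -2.15 ± 0.20, the fatty acid transporter Slc27a1 at -1.86 ± 0.20, and Fabp3, the fatty acid carrier of muscle and heart, at -1.77 ± 0.20 (223 in the control and 65.6 after denervation). The higher gene, named after its value was seen, was Angptl4, a secreted inhibitor of lipoprotein lipase (1.46 ± 0.20).

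**Figure D4:**
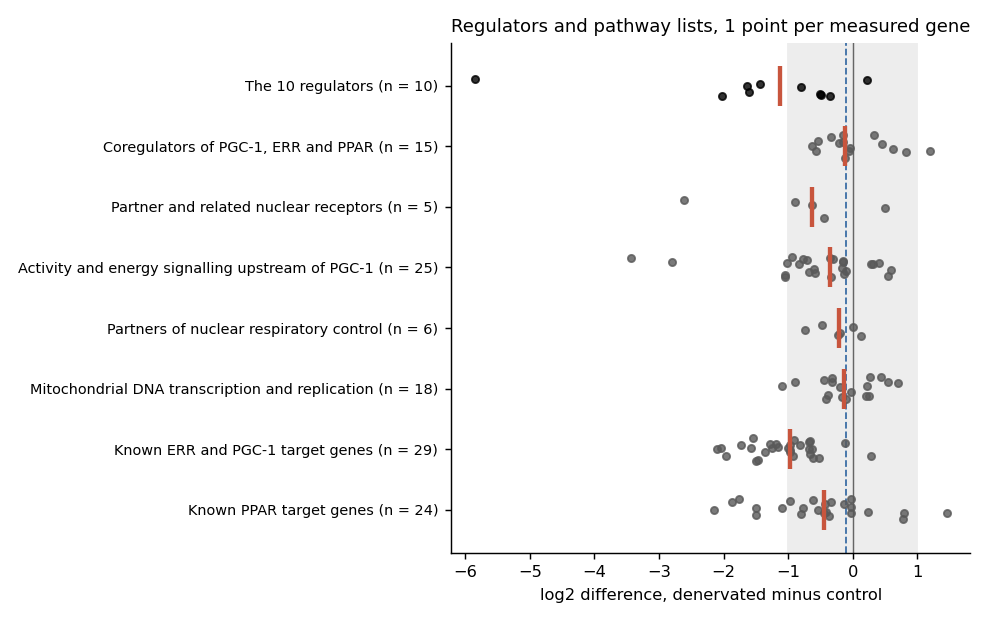
Difference of each measured gene, denervated minus control (log2), for the 10 regulators and the 7 pathway lists, with list medians as red bars, the median of all genes as a dashed line and the range within 2-fold shaded. The ERR and PGC-1 targets centre at -0.98, while coregulators and mitochondrial DNA genes centre at -0.13 and -0.14.

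Markers of other cells moved between the pools as well. Of 8 macrophage markers 7 were at least 2-fold higher, and their summed signal was 17.6 in the control and 50.6 after denervation. Lyz2, the myeloid lysozyme (1.48 ± 0.20), alone gave 15.9 and 44.5 of these sums. Csf1r, the macrophage growth factor receptor, was at 1.33 ± 0.20. The 8 endothelial markers were all below 0, 1 of them at least 2-fold, with sums of 33.4 and 20.1, and the bright ones were Flt1 (-0.73 ± 0.20) and Cdh5 (-0.56 ± 0.20). With spike-in scaling 7 of these 8 stayed below 0. The 8 muscle fibre markers summed to 2679 and 2047, with none past 2-fold. Their median was -0.37, but 0.03 with spike-in scaling, where 4 lay below 0. White adipocyte markers, 6 of 6 below 0, summed to 93.8 and 69.9, of which Fabp4 (-0.42 ± 0.20) alone gave 90.4 and 67.7. The next brightest, Cidec, was at -0.76 ± 0.20. With spike-in scaling these 6 stayed below 0 (median -0.37), but Fabp4 moved to -0.02. Brown fat also uses PGC-1alpha. Its defining marker Ucp1 was not above background in either pool. Of 6 brown adipocyte markers 4 were measured, 2 of them at least 2-fold higher and 2 below 0, with a median of 0.76. The bright ones were Cox8b, also a muscle gene (-0.91 ± 0.20), and Cidea (1.85 ± 0.20). Schwann cell markers were at least 2-fold lower for 3 of 7, with sums of 13.4 and 6.43. The bright ones were Pmp22 (-1.55 ± 0.20), which gave 9.22 and 3.15 of these sums, and S100b (-0.04 ± 0.20). The part of these cells in the values of the regulators was not tested.

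Over the reported processing and 12 alternatives, Perm1 ran from -5.86 to -5.42, Ppargc1a from -2.02 to -1.52, Ppara from -1.64 to -1.21 and Esrra from -1.47 to -1.01, all at least 2-fold lower throughout. Ppargc1b ran from -1.60 to -0.85 and fell short of 2-fold only when the probe with the smallest difference stood for the gene. Esrrg ran from -0.81 to -0.37 and Tfam from -0.52 to -0.06.

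**Figure D5:**
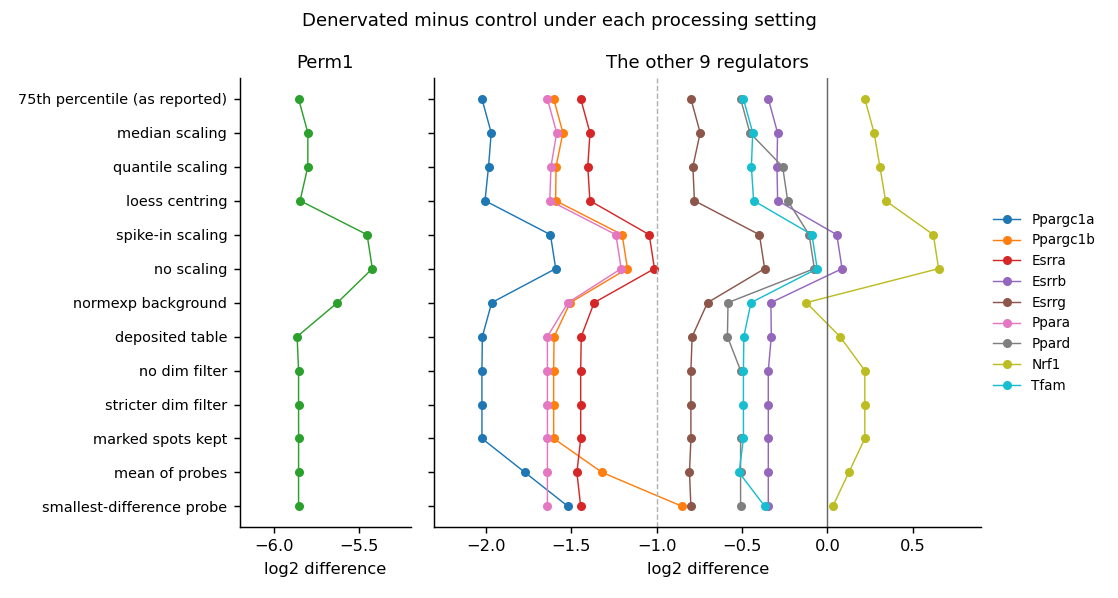
Difference of each regulator (log2, denervated minus control) as reported and under 12 other processing settings, with a dashed line at 2-fold lower. The axis of the Perm1 panel covers another range than that of the panel beside it. Scaling to spike-ins or no scaling moves all genes to the right, and only Esrrb crosses 0 there.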

How the data were processed

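Total RNA of 6 mice was pooled per group and labelled with Cy3 for 1 array each, and the source label gave the group. The authors made the spot intensity values with Feature Extraction, Agilent's scanner software (9.5 in the submitters' processing notes, 9.5.3.1 per the file headers). Per the file headers they are background-subtracted and detrended, with surrogates for dim spots, a preset multiplicative error of 10% and no scaling between arrays. The authors' deposited table holds a whole-number score, found here to be the processed intensity scaled so that the 75th percentile over all spots is 100 and then rounded (scale varying by 0.126% and 0.127% among spots with a score of at least 100). It served as an alternative only.

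Marked spots (87 and 81) were left out and spots of a probe averaged on the log2 scale. Each array was scaled to its 75th percentile over 41174 non-control probes (788 and 1063). A probe was measured when both arrays called it well above background and neither called it saturated, and a gene took its measured probe with the highest mean signal. For a probe above background on 1 array, the bound uses the higher of the dim signal and the lowest detected signal. Names came from RefSeq accessions (23374 probes) or older symbols (2689) in a GRCm38.p6 table, else from the file (8351), and 6760 probes had none. Promoters came from a table of RefSeq starts on GRCm38.p6, used here for 9 of the 10 regulators (all but Ppargc1b). The threshold was 2-fold. With 1 array per group no test was possible. The number of arrays limits precision. Alternatives used limma 3.58.1 under R 4.3.3 for normexp (offset 50) and Python 3.11.15 otherwise, and the scaling code was tested on simulated data.

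Named genes are all regulators, the 3 largest differences and the brightest gene of each pathway list, the 2 brightest of each cell type list, the genes beside the 3 most different regulators in the order of all genes, and probes within 100 kb. One gene that this rule names is not reported here. The regulators and lists were chosen with earlier results of these data known.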

Additional observations from a re-analysis of the deposited data

How the results depend on the processing

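With 1 array per group no replicate could be left out, and each call rests on 2 pools and on probe design. No paired analysis was possible because each group has 1 array. The 5 regulators at least 2-fold lower were the same under 11 of 12 alternatives, and 4 remained when the probe with the smallest difference stood for a gene, Ppargc1b being lost. No regulator was at least 2-fold higher under any of the 12. Scaling set the counts over other genes. With spike-in scaling 624 genes were at least 2-fold lower and 2204 higher, and without scaling 588 and 2335, against 1291 and 1050 as reported. Pathway genes at least 2-fold lower numbered 16 under both, and those higher 7 with spike-ins and 8 without scaling, against 27 and 2. With no filter on dim probes 2455 genes were at least 2-fold lower. Spike-in scaling and no scaling differ from the reported scaling by a constant of 0.40 and 0.43 for every gene. Among other results, 162 of 203 values moved by less than the technical error and 41 by more, and none of those past 2-fold changed sign. Signal over background limits Ppard and the second probes of Perm1 and Esrrb.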

Other observations

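In the order of all measured genes by their difference, over the 2 arrays, the named genes next to Perm1 were Ostn (-6.36 ± 0.21), which encodes the muscle-secreted peptide musclin, and Cntnap2 (-5.86 ± 0.34) on the lower side, and Mettl21c (-5.41 ± 0.21), a muscle methyltransferase, and Ccdc146 (-5.22 ± 0.34) on the higher side. Next to Ppargc1a stood Ankrd9 (-2.03 ± 0.20), Rps6ka2 (-2.03 ± 0.20), Nudt4 (-2.02 ± 0.20) and Cmtm5 (-2.01 ± 0.25). Next to Ppara stood Npm2, Map3k5, Tjp3 and Gsdmc, all between -1.64 and -1.63. Such likeness rests on 1 difference per gene.

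An unnamed probe on chromosome 18 (61617603 to 61617662, mm8), within 100 kb of the outermost Ppargc1b probe, read 0.167 in the control and 0.0487 after denervation (-1.77 ± 0.24).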
